A study of Mus musculus with 10 samples.

Results

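Described here are 34 mouse genes of the integrated stress response and the unfolded protein response, followed through resting and stimulated naive CD4 T cells with and without Compound 10, a chemical inhibitor of the NFAT:AP-1 complex. The genes were chosen by name as components and targets of these pathways, not by a threshold on measured values. They were divided into an ATF4 branch of 13 genes and an endoplasmic reticulum (ER) branch of 21 genes. The gene table summed from the deposited files held 45321 genes, of which 14417 passed a filter on low counts and were tested. Of the 34 members, 30 were tested, 9 of the ATF4 branch and all 21 of the ER branch.

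Naive T cells, selected as CD4+, CD62L+ and CD69-, were sorted from spleens of C57BL/6 mice. All cells were pretreated for 1 h with the DMSO vehicle or with 12.5 µM Compound 10. Stimulated groups then received 10 nM PMA, which activates protein kinase C, and 1 µM ionomycin, which raises intracellular calcium, for 2 h, and unstimulated groups received neither. RNA was sequenced after SMART-seq library preparation in 10 libraries: 3 of unstimulated vehicle cells, 2 of unstimulated Compound 10 cells, 2 of stimulated vehicle cells and 3 of stimulated Compound 10 cells. No cells without DMSO or compound were included, and PMA with ionomycin bypasses the antigen receptor. The labels do not tie single libraries to separate animals or cultures. The spread behind each p-value is that of these libraries and may be technical.

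In the integrated stress response, kinases including PERK (Eif2ak3) phosphorylate the initiation factor eIF2, which lowers general translation and raises translation of the transcription factor ATF4. ATF4 then activates genes for amino acid supply, redox balance and feedback. In the unfolded protein response, misfolded protein in the ER engages PERK, the kinase and nuclease IRE1 (Ern1) and the membrane-bound factor ATF6, and the factors XBP1 and ATF6 drive genes for chaperones, disulfide isomerases and ER-associated degradation. In lymphocytes the pathway is best known for the XBP1-dependent secretory growth of plasma cells, and activated T cells enlarge their ER as they begin to secrete cytokines. ATF4, XBP1 and eIF2 are controlled largely after transcription, which RNA levels of the genes do not show.

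The sequences below are the 250 bases before the RefSeq transcription start of 8 members (GRCm38.p6, given 5′ to 3′ on the strand of the gene). They are shown because they contain the 2 elements that classically mark the branches, in genes whose RNA is described further on. Capitals in the first 6 mark an ER stress element, searched as CCAAT, any 9 bases, CCACG, on both strands. Capitals in the last 2 mark a C/EBP-ATF response element, searched as TGATGNAA on both strands.
Hspa5: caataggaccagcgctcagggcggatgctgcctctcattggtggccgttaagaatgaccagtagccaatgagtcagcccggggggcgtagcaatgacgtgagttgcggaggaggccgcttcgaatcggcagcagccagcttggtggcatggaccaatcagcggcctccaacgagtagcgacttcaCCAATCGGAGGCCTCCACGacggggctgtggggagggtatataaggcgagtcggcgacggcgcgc
Calr: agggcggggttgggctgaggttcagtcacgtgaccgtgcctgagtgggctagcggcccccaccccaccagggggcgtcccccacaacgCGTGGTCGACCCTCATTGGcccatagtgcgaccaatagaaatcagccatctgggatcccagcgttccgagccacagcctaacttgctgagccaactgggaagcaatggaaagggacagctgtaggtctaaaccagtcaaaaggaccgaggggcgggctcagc
Hsp90b1: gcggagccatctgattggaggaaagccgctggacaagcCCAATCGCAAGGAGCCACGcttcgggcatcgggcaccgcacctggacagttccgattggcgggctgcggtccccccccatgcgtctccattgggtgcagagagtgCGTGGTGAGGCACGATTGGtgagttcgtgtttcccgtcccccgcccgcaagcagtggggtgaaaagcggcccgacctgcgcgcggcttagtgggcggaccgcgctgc
Pdia6: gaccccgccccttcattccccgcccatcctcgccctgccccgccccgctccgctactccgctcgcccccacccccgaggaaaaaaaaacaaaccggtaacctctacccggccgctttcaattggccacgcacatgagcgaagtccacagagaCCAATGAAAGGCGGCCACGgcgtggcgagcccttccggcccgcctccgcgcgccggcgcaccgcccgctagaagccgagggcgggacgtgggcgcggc
Syvn1: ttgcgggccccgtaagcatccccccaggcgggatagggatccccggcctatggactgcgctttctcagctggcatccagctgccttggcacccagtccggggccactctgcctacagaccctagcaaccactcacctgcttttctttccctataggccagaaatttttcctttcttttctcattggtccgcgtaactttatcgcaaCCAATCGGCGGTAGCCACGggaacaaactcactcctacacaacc
Dnajc3: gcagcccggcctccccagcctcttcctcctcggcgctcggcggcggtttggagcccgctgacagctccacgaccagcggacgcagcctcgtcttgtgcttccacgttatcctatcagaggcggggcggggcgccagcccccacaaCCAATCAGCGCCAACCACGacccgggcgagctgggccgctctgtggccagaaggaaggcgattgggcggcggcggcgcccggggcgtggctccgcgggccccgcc
Herpud1: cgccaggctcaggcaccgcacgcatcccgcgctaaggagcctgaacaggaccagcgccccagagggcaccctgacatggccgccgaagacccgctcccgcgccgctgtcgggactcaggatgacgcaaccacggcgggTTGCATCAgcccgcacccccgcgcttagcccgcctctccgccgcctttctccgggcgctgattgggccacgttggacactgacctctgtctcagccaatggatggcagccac
Slc7a11: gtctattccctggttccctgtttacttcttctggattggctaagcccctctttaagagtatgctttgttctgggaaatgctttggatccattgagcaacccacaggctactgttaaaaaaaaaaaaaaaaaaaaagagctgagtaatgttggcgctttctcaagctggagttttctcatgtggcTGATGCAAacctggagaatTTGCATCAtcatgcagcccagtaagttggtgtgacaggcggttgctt
These windows lie at chr2:34771840-34772089 on the plus strand for Hspa5, chr8:84846932-84847181 on the minus strand for Calr and chr10:86705445-86705694 on the minus strand for Hsp90b1. Those of Pdia6 and Syvn1 lie at chr12:17266339-17266588 and chr19:6046326-6046575, both on the plus strand. The Dnajc3 window is chr14:118937682-118937931 on the plus strand, that of Herpud1 is chr8:94386179-94386428 on the plus strand and that of Slc7a11 is chr3:50443614-50443863 on the minus strand.

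RefSeq windows from 250 bases before to 50 bases after the start were matched for 30 of the 34 members, in 32 windows, and were not matched for Cth, Manf, Hyou1 and Atf6. The ER stress element was found in 8 of 18 ER branch windows (44.4%), those of Calr, Canx, Creld2, Dnajc3, Hsp90b1, Hspa5, Pdia6 and Syvn1, and in 0 of 14 ATF4 branch windows. Among all 32851 windows of the same length, 39 held it (0.119%). Hsp90b1 carried it at 2 places, at bases -212 to -194 and -107 to -89 counted back from the start, and the Hspa5 match lay at bases -65 to -47. The C/EBP-ATF element was found in 6 of 14 ATF4 branch windows (42.9%), those of Asns, Chac1, Nupr1, Slc7a11, Trib3 and Vldlr, in 1 of 18 ER branch windows, that of Herpud1, and in 3.97% of all windows. Of the 7 genes with that element, 4 were among the members too low to test. The AP-1 element TGANTCA was found in the windows of Ddit3, Eif2ak3, Hspa5 and Sel1l, 12.5% of member windows against 7.81% of all windows. The unfolded protein response element TGACGTGG was found in 0 member windows and in 0.676% of all windows. The 5 letters CCACG alone, which the ER stress element contains, were in 75% of member windows and 32.8% of all windows. In the Herpud1 window they lay at bases -122 to -118 and -46 to -42. The ER stress element was searched with a spacer of 9 bases only. A window without a match, such as that of Herpud1, may hold another form of it.

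Library totals ran from 10694591 to 33486259 estimated counts. Stimulation was visible in every labelled library: Il2, the T cell growth factor, measured 345 and 381 CPM (counts scaled to a common library size by trimmed mean of M values, TMM) in the stimulated vehicle libraries, 29.3, 50.4 and 46.8 in the stimulated Compound 10 libraries and at most 0.109 in any unstimulated library. Cd69 and Egr1, genes of early activation, were also higher with stimulation under vehicle by 3.80 and 3.56 on the log2 scale. The sums of cell type genes that follow are CPM by library totals, without the TMM scaling used for the genes above. The T cell identity genes summed to between 2637 and 3983 CPM in every library, and B cell genes to between 3.20 and 11.8 CPM. A list of 7 plasma cell genes summed to 10.4 to 34.2 CPM without stimulation and 395 to 718 CPM with it, but the plasma cell genes Jchain, Sdc1, Mzb1, Tnfrsf17 and Derl3 together stayed at 2.00 to 6.58 CPM, so that the rise lay in the other members of the list, Irf4 and Prdm1, which activated T cells also use. Myeloid genes summed to 48.3 to 73.4 CPM in unstimulated vehicle, 32.6 to 38.4 in unstimulated Compound 10, 22.6 to 29.2 in stimulated vehicle and 17.4 to 20.1 CPM in stimulated Compound 10 libraries, and naive T cell genes went from 2435 to 2853 CPM without to 1078 to 1598 CPM with stimulation. Regulatory T cell genes summed to 22.3 to 44.2 CPM without stimulation, 126 to 165 in stimulated vehicle and 39.4 to 68.6 in stimulated Compound 10 libraries. Memory or effector genes summed to 13.5 to 16.2 CPM in unstimulated vehicle and 22.1 to 34.1 CPM in the other libraries. Dividing by the TMM factors, given below, would lower all these sums in the unstimulated libraries and raise them in the stimulated ones. How far the myeloid and naive T cell sums fell with stimulation therefore depends on the scaling. The part of these lists in the results was not tested. In bulk RNA, fewer cells of a type and less RNA per cell cannot be told apart.

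Fold changes below are on the log2 scale from TMM-scaled counts, a scaling that assumes that most genes do not change between libraries. The TMM factors were 1.2 to 1.34 in the 5 unstimulated and 0.731 to 0.850 in the 5 stimulated libraries. When libraries were scaled by their totals alone, the median gene moved to -0.83 with stimulation under vehicle, -0.60 with stimulation under Compound 10 and 0.15 with Compound 10 in stimulated cells. Changes are therefore relative to the bulk of genes. A gene was called changed when its adjusted p (edgeR quasi-likelihood test, Benjamini-Hochberg over 14417 genes) was under 0.05.

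On the TPM scale, which corrects for transcript length and so allows genes to be compared, Hspa5 (chr2:34771970-34777547, GRCm38), which encodes the main ER chaperone BiP, was the most abundant member, at 2245 to 5936 TPM in the 10 libraries. Pdia3, a disulfide isomerase of glycoprotein folding, followed at 837 to 1838 TPM. The lectin chaperone Calr came next by its median, at 467 to 1346 TPM. The order of Pdia3 and Calr depended on the library, with Pdia3 higher in 5 of the 10. Among ATF4 branch genes, Ppp1r15a, the feedback phosphatase subunit GADD34, reached 354 to 572 TPM and Atf4 reached 163 to 586 TPM. The 3 sensors were far lower than the chaperones: Eif2ak3 ranged over 16.5 to 65.7 TPM, Ern1 over 4.08 to 18.3 TPM and Atf6 over 0.452 to 3.52 TPM. Of the 33 neighbouring pairs in the order of medians, 4 were in the same order in all 10 libraries, namely Hspa5 above Pdia3, Calr above Ppp1r15a, Xbp1 above Pdia4 and Hyou1 above Cebpg.

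**Figure D1:**
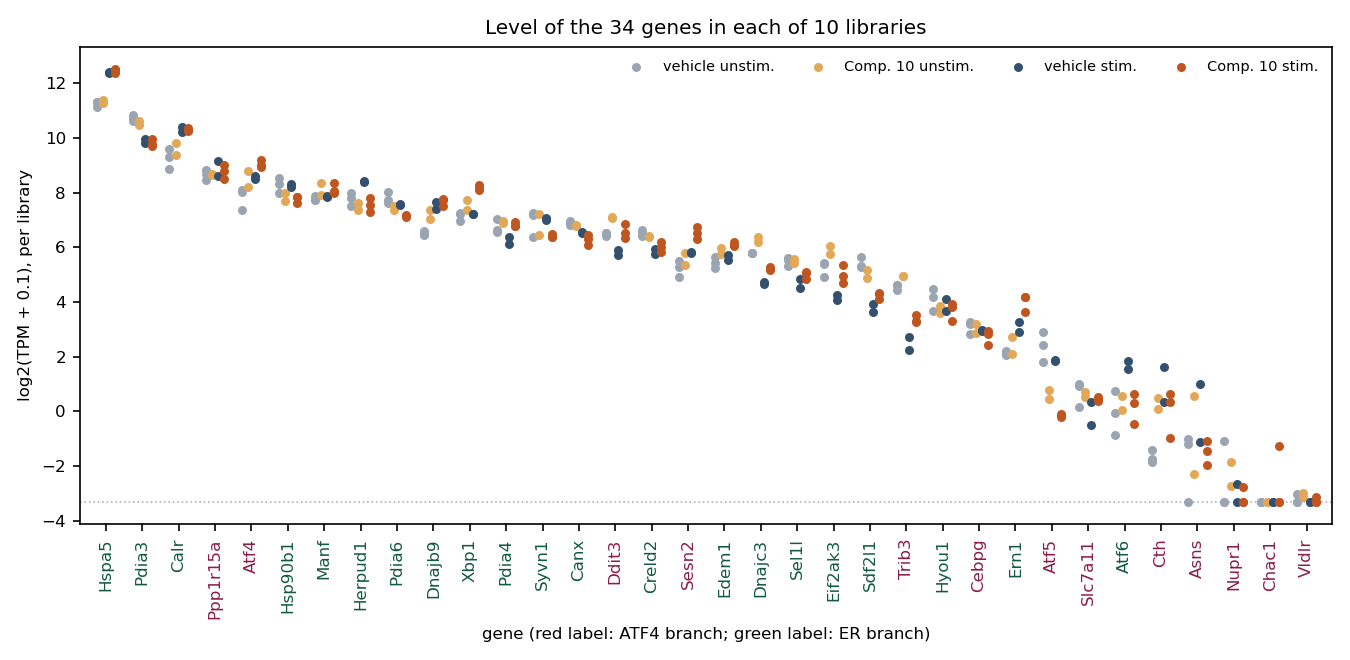
Levels of the 34 genes as log2(TPM + 0.1), one point per library and 4 colours for the groups, ordered by the median over 10 libraries. ER branch genes (green labels) fill most of the upper range and 4 ATF4 branch genes (red labels) lie at the right near the dotted line, which marks a TPM of 0.

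Except for Sesn2, the amino acid and redox targets of the ATF4 branch were low. Asns, asparagine synthetase, totalled 54 counts over the 10 libraries, the very low density lipoprotein receptor gene Vldlr 10, the stress cofactor Nupr1 7 and Chac1, which degrades glutathione, 4, all from 1 stimulated Compound 10 library. These were the 4 members left out of the tests. A library with 0 counts allows up to 3 counts, which is 0.0902 CPM by the deposited total in the deepest library and 0.282 in the shallowest. Cth, the cystathionine gamma-lyase of cysteine synthesis, was tested but held 152 counts in all, and the cystine transporter Slc7a11 lay between 0.602 and 1.90 TPM. Of the Slc7a11 counts, 77.8% to 98.3% went to the retained-intron transcript Slc7a11-202 and at most 7.41 counts in a library to the coding transcript Slc7a11-201, so its level says little about transporter mRNA.

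With stimulation under vehicle, 4 of 9 ATF4 branch members tested rose and 1 fell (3 and 3 with library totals only), where 19.5% of all genes rose and 19.4% fell. Atf4 (chr15:80255184-80257541), the transcription factor at the centre of the branch, measured 243, 220.1 and 165 CPM in the unstimulated and 619 and 556 CPM in the stimulated vehicle libraries. The groups did not overlap, and the log2 fold change was 1.49 ± 0.19 (SE) with an adjusted p of 0.000104. Sesn2 (chr4:132492032-132510501), a stress-induced inhibitor of mTORC1, moved from 74.6, 83.4 and 64.9 to 196 and 182 CPM, a change of 1.35 ± 0.17 (SE). Ppp1r15a, which returns eIF2 to its unphosphorylated state, rose from 442, 544 and 585 to 888 and 1233 CPM (log2 1.02, adjusted p = 0.00180). That call ended with library totals only, where the change was 0.25. Cth read 0.164, 0.140 and 0.0859 CPM before and 2.44 and 1.30 CPM after stimulation, a fold change of 3.82 ± 0.65 (SE) that rested on 9 counts in the 3 unstimulated and 34 in the 2 stimulated libraries.

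Trib3 (chr2:152337422-152344032), a pseudokinase that is a classical ATF4 and CHOP target, went the other way. It measured 25.2, 25 and 26.2 CPM in unstimulated and 9.01 and 12.0 CPM in stimulated vehicle cells, a change of -1.27 ± 0.20 (SE) with an adjusted p of 0.000493. Ddit3 (chr10:127290774-127296288), which encodes the stress factor CHOP, stood at 34, 34.2 and 42.7 against 38.2 and 41.3 CPM, a change of 0.10 ± 0.20 (SE) that did not pass the test (adjusted p = 0.716). The bZIP factors Atf5 and Cebpg and the transporter Slc7a11 also did not pass, at 0.16, 0.10 and 0.20. With library totals only, Ddit3 and Cebpg read -0.67 and -0.68 and passed the test as lower.

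**Figure D2:**
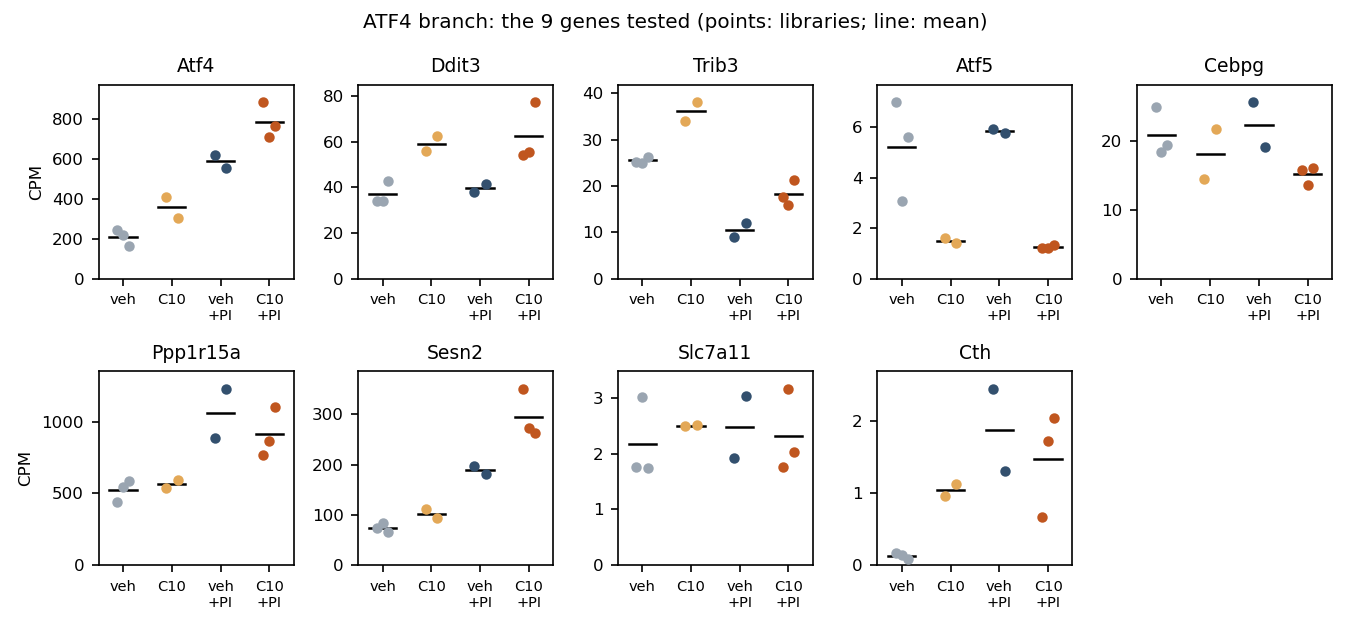
CPM (TMM-scaled) of the 9 ATF4 branch genes tested, one point per library with the group mean as a line, for vehicle (veh) and Compound 10 (C10) cells without and with PMA and ionomycin (+PI). Atf4 and Sesn2 are higher in the stimulated libraries, relative to the bulk of genes and also with library totals only, Trib3 is lower, and Atf5 is lower in all 5 Compound 10 libraries than in all 5 vehicle libraries.

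In the ER branch, 12 of 21 members rose and 1 fell with stimulation under vehicle (5 and 8 with library totals only). The median change was 0.62 in the ER branch and 0.20 in the ATF4 branch, against -0.06 over all genes tested. Among the sensors and their factors, Atf6 (chr1:170704674-170867771) moved from 3.5, 6.00 and 2.12 to 21.2 and 24.0 CPM, a change of 2.56 ± 0.40 (SE) with an adjusted p of 0.000436. Ern1 (chr11:106394650-106487852) moved from 8.70, 7.87 and 8.54 to 25.5 and 17.6 CPM, a change of 1.36 ± 0.23 (SE). Xbp1 (chr11:5520659-5525893), the factor whose mRNA IRE1 splices, moved from 137, 136 and 144 to 251 and 251 CPM, a change of 0.85 ± 0.13 (SE) that fell to 0.07 and lost its call with library totals only. For these 3 genes every stimulated library was above every unstimulated one. Eif2ak3 (chr6:70844515-70905245) did not pass, at 95.8, 97.6 and 76.1 and then 66.3 and 63.3 CPM (log2 -0.47, adjusted p = 0.0954), although its groups did not overlap.

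Among the 10 chaperones and cofactors, 5 rose and 1 fell. Hspa5 measured 2878, 2887 and 3133 CPM in unstimulated and 9959 and 10319 CPM in stimulated vehicle cells, a change of 1.77 ± 0.14 (SE) with an adjusted p of 2.79e-06. Dnajb9 (chr12:44205559-44210326), the BiP cochaperone ERdj4, moved from 85.3, 83.2 and 107 to 300.3 and 339 CPM, a change of 1.80 ± 0.18 (SE). Calr (chr8:84841850-84846934) moved from 578, 451 and 474 to 1767 and 1554 CPM, a change of 1.73 ± 0.16 (SE). With library totals only, these 3 still passed at 1.00, 1.03 and 0.95. The ER member of the HSP90 family, Hsp90b1, and the secreted ER factor Manf rose by 0.79 and 0.78 on the log2 scale, and neither passed with library totals only, at 0.01 and 0.01. Sdf2l1, a component of the BiP cochaperone complex, fell by 0.90 (adjusted p = 0.0141), from 20.5, 20.2 and 30.2 to 11.6 and 13.7 CPM. Canx, Hyou1, Creld2 and Dnajc3 did not pass and measured 0.37, 0.47, 0.09 and -0.33.

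Of the 4 genes of ER-associated degradation, 3 rose, and none of these 3, Herpud1, Edem1 and Syvn1, passed with library totals only, where they read 0.54, 0.18 and -0.16. Herpud1 (chr8:94386438-94395377), which organises the retrotranslocation complex, measured 152, 165 and 261 and then 483 and 473 CPM, a change of 1.31 ± 0.26 (SE). Edem1, a lectin that hands misfolded glycoproteins to the degradation machinery, changed by 0.96 ± 0.13 (SE). The ubiquitin ligase gene Syvn1 rose by 0.62 (adjusted p = 0.0258) with TMM, and its adaptor Sel1l measured 0.04. Of the disulfide isomerases, Pdia6 rose by 0.48 (adjusted p = 0.0224) with TMM but read -0.30 with library totals only, and Pdia3 and Pdia4 did not pass, at -0.16 and 0.26. Of the 8 genes with an ER stress element printed or named above, 5 rose and 3 did not pass, where 19.5% of all genes rose and 19.4% fell. The 5 were Calr, Hsp90b1, Hspa5, Pdia6 and Syvn1, of which Hspa5 and Calr also rose with library totals only.

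All 18 called members and 3 others, 21 of 30, had groups that did not overlap with stimulation under vehicle, as did 62.5% of all genes tested. Of the calls, 14 held without any single library. Sdf2l1, Pdia6, Manf and Syvn1 did not pass without stimulated vehicle replicate 1 (adjusted p of 0.115, 0.138, 0.114 and 0.131 for the 4) or replicate 2 (0.0508, 0.0765, 0.0947 and 0.0892). Without unstimulated vehicle replicate 1 Manf was lost (0.0690), without replicate 2 Manf, Pdia6 and Syvn1 were lost (0.0818, 0.0887 and 0.0744), and without replicate 3 Syvn1 was lost (0.0579).

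**Figure D3:**
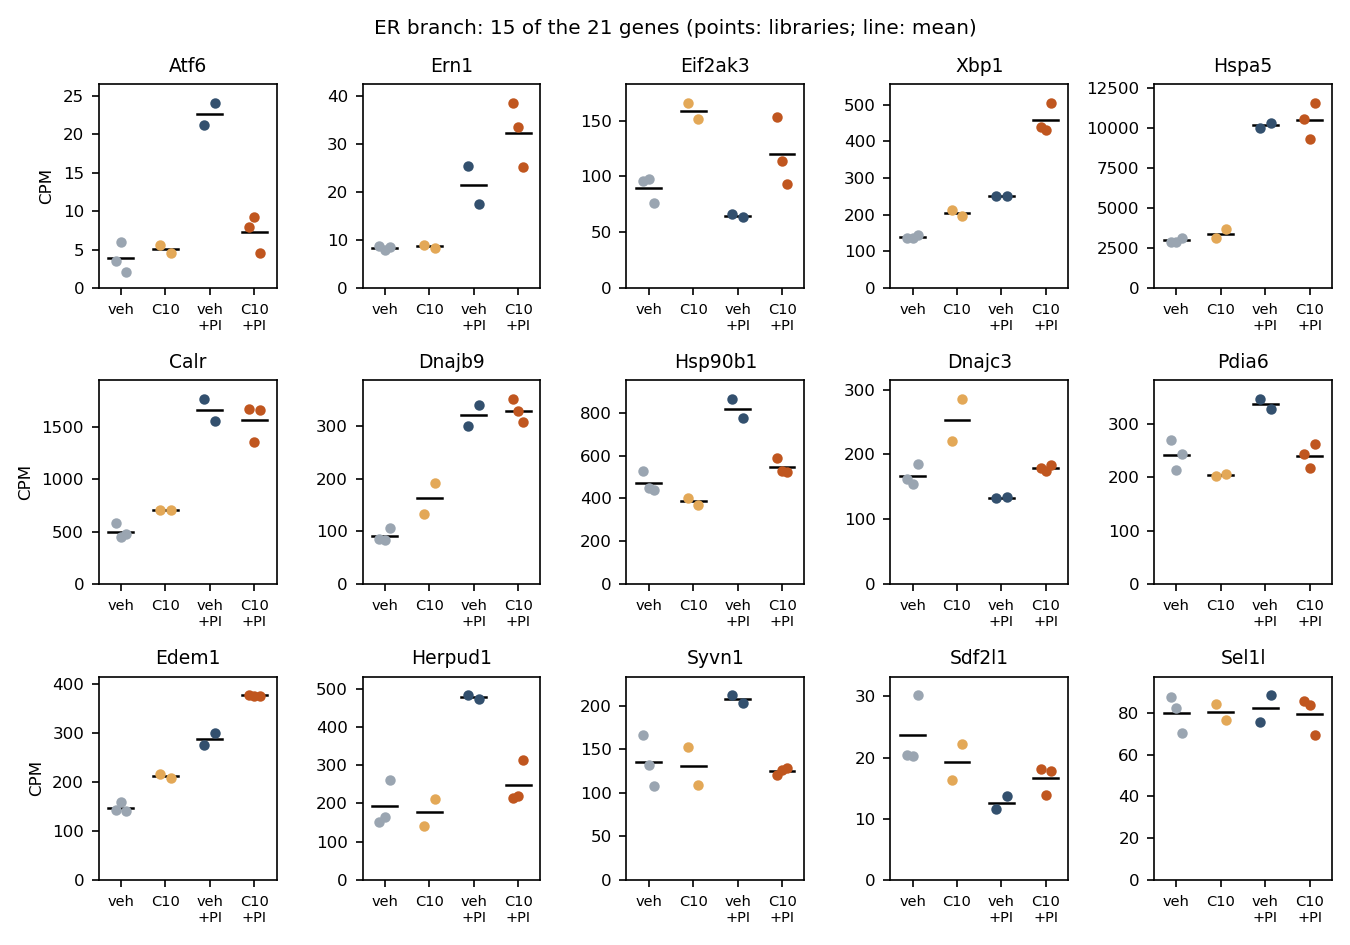
CPM (TMM-scaled) of 15 of the 21 ER branch genes, one point per library with the group mean as a line, for vehicle (veh) and Compound 10 (C10) cells without and with PMA and ionomycin (+PI). Hspa5, Calr and Dnajb9 are at like levels in stimulated vehicle and stimulated Compound 10 libraries, while Herpud1, Hsp90b1, Pdia6, Syvn1 and Atf6 are lower and Xbp1 and Eif2ak3 higher in the stimulated Compound 10 libraries.

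In cells pretreated with Compound 10, stimulation raised 3 of 9 ATF4 branch members tested and lowered 1 (2 and 2 with library totals only), where 12.8% of all genes rose and 13.7% fell. Atf4 went from 407 and 306 to 885, 711 and 764 CPM, a change of 1.14 ± 0.20 (SE) with an adjusted p of 0.00167. Sesn2 went from 111 and 92.9 to 351, 273 and 263 CPM, a change of 1.54 ± 0.18 (SE), and Ppp1r15a changed by 0.69 (adjusted p = 0.0283), or by 0.10 with no call when scaled by library totals only. Trib3 fell by 0.98, from 34.1 and 38.1 to 17.7, 15.9 and 21.3 CPM. Cth did not pass here, at 0.957 and 1.13 CPM unstimulated and 0.663, 1.71 and 2.03 CPM stimulated (log2 0.50). The stimulated range of Cth included the unstimulated values.

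In the ER branch 7 of 21 members rose and 1 fell with stimulation under Compound 10 (4 and 7 with library totals only, 8 and 0 with upper-quartile factors), with a median of 0.46 against -0.01 for all genes. Hspa5 rose by 1.63 and Calr by 1.15, the first from 3095 and 3655 to 10549, 9266 and 11541 CPM. Ern1 rose by 1.89, Xbp1 by 1.16, Dnajb9 by 1.02 and Edem1 by 0.82. With library totals only, Dnajb9 and Edem1 read 0.43 and 0.23 and did not pass. Hsp90b1 rose by 0.50 (adjusted p = 0.0242) with TMM and read -0.10 with library totals only. Dnajc3, the BiP cochaperone that also restrains PERK, fell by 0.50, from 221 and 286 to 178, 175 and 184 CPM (adjusted p = 0.0287), and did not pass with upper-quartile factors. Atf6, Herpud1, Syvn1, Pdia6 and Manf did not pass, at 0.52, 0.49, -0.06, 0.24 and 0.46. The vehicle and compound stimulations were not compared by which of them passed. The interaction test of that difference is given further on.

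The 12 called members and 5 others, 17 of 30, had groups that did not overlap, as did 50.4% of all genes tested. Of the calls, 9 held without any single library. Ppp1r15a, Hsp90b1 and Dnajc3 did not. Without unstimulated Compound 10 replicate 1, Ppp1r15a and Hsp90b1 had adjusted p of 0.128 and 0.0585, and without replicate 2 the 3 genes had 0.0873, 0.178 and 0.252. Without stimulated Compound 10 replicate 1, Hsp90b1 and Dnajc3 had 0.0790 and 0.0718, without replicate 2 Ppp1r15a and Dnajc3 had 0.0533 and 0.0808, and without replicate 3 they had 0.0875 and 0.0506.

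The direct comparison of stimulated Compound 10 cells with stimulated vehicle cells asks how the inhibitor shifted these genes in activated cells. In the ATF4 branch 3 of 9 members were higher and 1 lower (3 and 1 with library totals only and with upper-quartile factors), where 10.4% of all genes were higher and 12.8% lower. Trib3 measured 9.01 and 12.0 CPM with vehicle and 17.7, 15.9 and 21.3 CPM with Compound 10, a difference of 0.79 ± 0.20 (SE) with an adjusted p of 0.0156. Sesn2 measured 196 and 182 and 351, 273 and 263 CPM, a difference of 0.65 ± 0.18 (SE) (adjusted p = 0.0213). Ddit3 measured 38.2 and 41.3 and 54.3, 55.4 and 77.5 CPM, a difference of 0.65 ± 0.20 (SE) (adjusted p = 0.0361). Its highest value, in stimulated Compound 10 replicate 3, set much of this, since without that library the difference was 0.46 with an adjusted p of 0.102. In all 3 genes the Compound 10 libraries lay above both vehicle libraries.

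Atf5 (chr7:44812256-44816658), a bZIP factor induced by ATF4 and able to activate mitochondrial protein stress genes, had the largest difference among the members in this comparison. It measured 5.92 and 5.79 CPM with vehicle and 1.21, 1.2 and 1.33 CPM with Compound 10, a difference of -2.22 ± 0.38 (SE) with an adjusted p of 0.00177. The difference rested on 46 and 67 counts with vehicle and 11, 14 and 15 counts with Compound 10. The call held under every alternative run. Atf5 overlaps Nup62 on the opposite strand, the libraries carry no stated strand, and reads of the overlap cannot be assigned to one of them. Atf4 itself was at 619 and 556 CPM with vehicle and 885, 711 and 764 CPM with Compound 10, groups that did not overlap, but the difference of 0.42 ± 0.20 (SE) did not pass (adjusted p = 0.148). Cebpg, Ppp1r15a, Cth and Slc7a11 did not pass either, at -0.56, -0.22, -0.31 and -0.10.

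In the ER branch 2 of 21 members were higher and 5 lower in stimulated Compound 10 cells (6 and 3 with library totals only, 6 and 4 with upper-quartile factors, which moved the median gene to 0.18). The 4 that joined the higher ones under both of these scalings were Pdia4, Edem1, Dnajc3 and Ern1. The median member differed by 0.04, the same as the median of all genes, 0.04, against -0.10 in the ATF4 branch. The 2 higher genes belong to the sensing arm. Xbp1 measured 251 and 251 CPM with vehicle and 439.9, 432 and 505 CPM with Compound 10, a difference of 0.87 ± 0.14 (SE) with an adjusted p of 0.000991. Eif2ak3, the PERK gene, measured 66.3 and 63.3 and 154, 114 and 93.0 CPM, a difference of 0.89 ± 0.21 (SE) (adjusted p = 0.0104). Its 3 Compound 10 libraries differed among themselves, from 93.1 to 154 CPM, and each was above both vehicle libraries.

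Atf6 was the sensor gene that was lower, at 21.2 and 24.0 CPM with vehicle and 7.95, 9.24 and 4.51 CPM with Compound 10, a difference of -1.65 ± 0.40 (SE) (adjusted p = 0.0114). The other lower genes were the degradation genes Herpud1 and Syvn1, the chaperone gene Hsp90b1 and the isomerase gene Pdia6. Herpud1 measured 483 and 473 CPM against 213, 219 and 313 CPM, a difference of -0.95 ± 0.26 (SE). Syvn1 measured 213 and 203.1 CPM against 121, 127 and 129 CPM, a difference of -0.73 ± 0.20 (SE), and did not pass with library totals only. Hsp90b1 measured 865 and 775 CPM against 589, 528 and 522 CPM, a difference of -0.59 ± 0.14 (SE). Pdia6 measured 346 and 327 CPM against 242, 217 and 261 CPM, a difference of -0.49 ± 0.15 (SE), and did not pass with either other scaling. In each of the 5 genes all Compound 10 libraries were below both vehicle libraries, and the Compound 10 values of Hsp90b1, Pdia6, Syvn1 and Herpud1 overlapped those of unstimulated vehicle cells.

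The most abundant chaperones showed little difference between stimulated Compound 10 and stimulated vehicle cells. Hspa5 measured 9959 and 10319 CPM with vehicle and 10549, 9266 and 11541 CPM with Compound 10, a difference of 0.04 ± 0.14 (SE) (adjusted p = 0.865). Dnajb9 differed by 0.04 ± 0.18 (SE) and Calr by -0.09 ± 0.16 (SE), and neither passed. Edem1 measured 275 and 299.8 and 377, 376 and 376 CPM, groups that did not overlap, with a difference of 0.39 ± 0.13 (SE) just outside the threshold (adjusted p = 0.0505). Among the 8 genes with an ER stress element, 0 were higher and 3 lower, Hsp90b1, Pdia6 and Syvn1, with 5 not called, among them Hspa5 and Calr. Over all genes tested 10.4% were higher and 12.8% lower. Pdia6 and Syvn1 did not pass with library totals only, nor without stimulated Compound 10 replicate 1 or replicate 2.

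The 11 called members of this comparison and 7 others, 18 of 30, had groups that did not overlap, as did 54.6% of all genes tested. The calls of Atf5 and Xbp1 held without any single library. Without stimulated vehicle replicate 1, which leaves 1 library in that group whose spread is then taken from the others, those 2 calls remained and the other 9 did not pass, with adjusted p from 0.0530 for Atf6 to 0.205 for Ddit3. Without stimulated vehicle replicate 2, 4 calls remained, Trib3 and Hsp90b1 in addition, and the rest ranged from 0.0770 for Atf6 to 0.149 for Sesn2. Without stimulated Compound 10 replicate 1, Sesn2, Herpud1, Pdia6 and Syvn1 were lost (0.0749, 0.0764, 0.0746 and 0.0602), and without replicate 2 Herpud1, Pdia6 and Syvn1 were lost (0.0745, 0.107 and 0.0523). Ddit3 was also lost without unstimulated vehicle replicate 2 (0.0531).

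**Figure D4:**
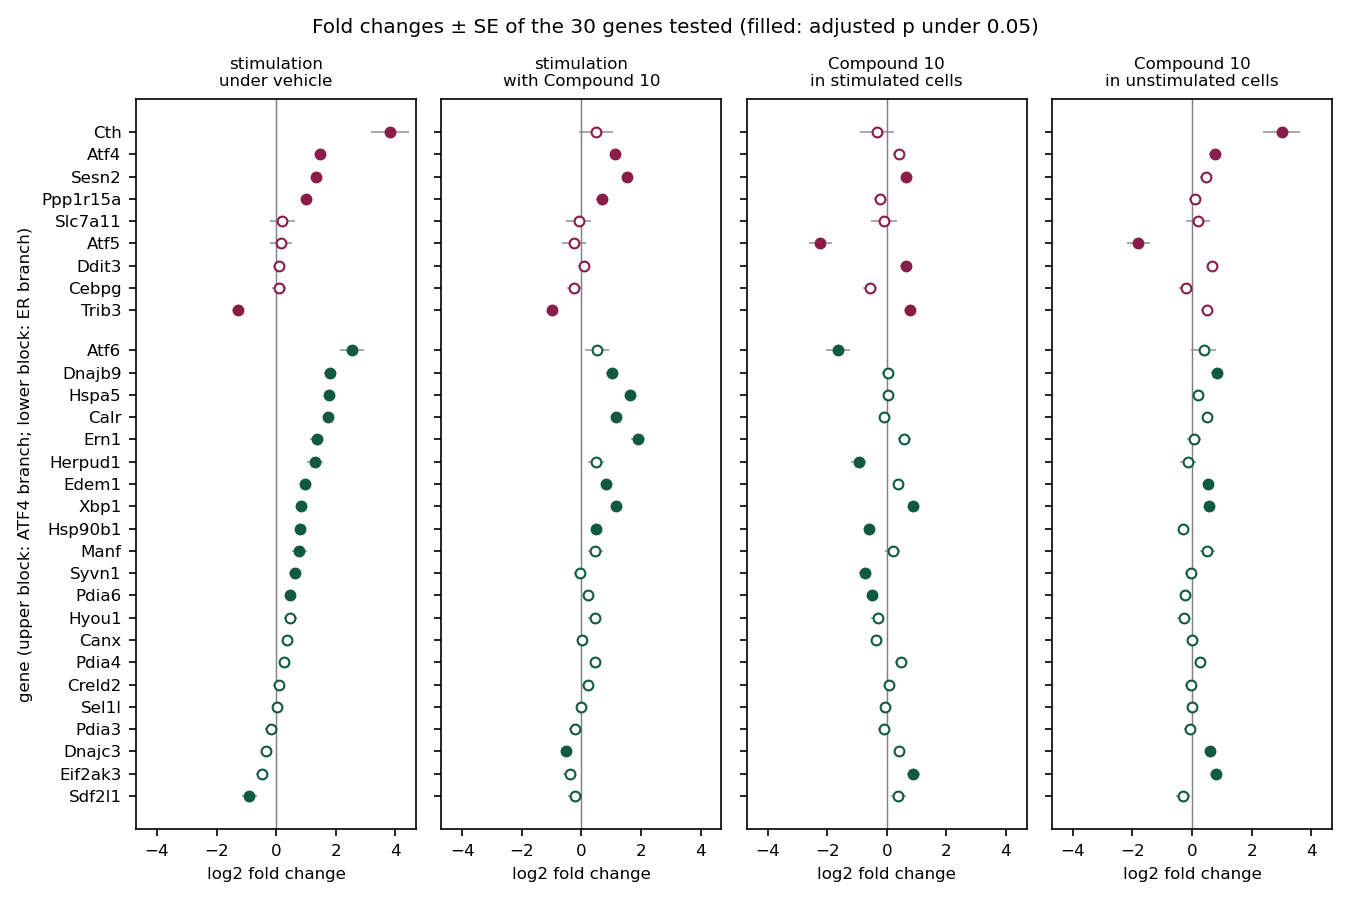
Log2 fold changes ± SE (TMM scaling) of the 30 genes tested in the 4 pairwise comparisons, ATF4 branch above and ER branch below, each ordered by the change with stimulation under vehicle. Filled points passed an adjusted p of 0.05; most ER branch points lie right of 0 in the 2 stimulation panels and spread to both sides of 0 in the panel for Compound 10 in stimulated cells, where their split turns to 6 higher and 3 lower with library totals only.

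In unstimulated cells Compound 10 was compared with vehicle to ask what it does to these genes without activation. This comparison shares its vehicle libraries with stimulation under vehicle and its Compound 10 libraries with stimulation under Compound 10, so their values are not independent. In the ATF4 branch 2 of 9 members were higher and 1 lower (1 and 1 with library totals only), where 4.65% of all genes were higher and 3.78% lower. Atf4 measured 243, 220.1 and 165 CPM with vehicle and 407 and 306 CPM with Compound 10, a difference of 0.77 ± 0.19 (SE) with an adjusted p of 0.0325. Cth measured 0.164, 0.140 and 0.0859 CPM and 0.957 and 1.13 CPM, a difference of 3.01 ± 0.63 (SE) that came from 9 counts in 3 libraries and 60 counts in 2. Atf5 measured 7.0, 3.07 and 5.62 CPM with vehicle and 1.59 and 1.40 CPM with Compound 10, a difference of -1.80 ± 0.38 (SE) (adjusted p = 0.0180). Ddit3 measured 34, 34.2 and 42.7 and 56.1 and 62.5 CPM, and its difference of 0.68 ± 0.19 (SE) lay just outside the threshold (adjusted p = 0.0505). Trib3 and Sesn2 also had groups that did not overlap but did not pass, at 0.50 and 0.45. The median over the 9 members was 0.45, against 0.00 for all genes.

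In the ER branch 5 of 21 members were higher and 0 lower in unstimulated Compound 10 cells (3 and 0 with library totals only), with a median of 0.06. Eif2ak3 measured 95.8, 97.6 and 76.1 CPM with vehicle and 166 and 151 CPM with Compound 10, a difference of 0.82 ± 0.20 (SE) (adjusted p = 0.0312). Xbp1 measured 137, 136 and 144 CPM and 213 and 197 CPM, a difference of 0.56 ± 0.13 (SE) (adjusted p = 0.0266). Dnajb9 measured 85.3, 83.2 and 107 CPM and 134 and 191 CPM, a difference of 0.82 ± 0.18 (SE) (adjusted p = 0.0198). Edem1 and Dnajc3 were higher by 0.53 and 0.60. With library totals only, Xbp1 and Edem1 did not pass (adjusted p of 0.0525 and 0.0790), nor did Atf4 (0.0513). Hspa5 differed by 0.19 ± 0.14 (SE) and did not pass, and Calr, at 578, 451 and 474 and 708 and 706 CPM, had groups that did not overlap with a difference of 0.50 (adjusted p = 0.0744).

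In unstimulated cells the 8 called members and 6 others, 14 of 30, had groups that did not overlap, as did 37.9% of all genes tested. Each of the 8 calls ended without some single library. Without unstimulated Compound 10 replicate 2 only Atf4 still passed, and the other 7 genes had adjusted p from 0.0888 for Xbp1 to 0.241 for Dnajc3. Without unstimulated vehicle replicate 2 only Atf5 still passed, and Atf4, Cth, Xbp1, Dnajb9, Edem1, Dnajc3 and Eif2ak3 had 0.0756, 0.0504, 0.0814, 0.0635, 0.0538, 0.0999 and 0.0628. Without unstimulated Compound 10 replicate 1, 3 of the 8 passed, with 0.182, 0.0614, 0.112, 0.109 and 0.114 for Atf4, Atf5, Xbp1, Edem1 and Eif2ak3. Without unstimulated vehicle replicate 1, 2 passed, Atf4 and Cth, and Atf5, Xbp1, Dnajb9, Edem1, Dnajc3 and Eif2ak3 had 0.0584, 0.0710, 0.0586, 0.0765, 0.0838 and 0.0594. Without unstimulated vehicle replicate 3 Eif2ak3 had 0.0510. Leaving out either stimulated vehicle library ended the calls of Atf4, Xbp1, Edem1, Dnajc3 and Eif2ak3 at adjusted p between 0.0506 and 0.0589, and leaving out stimulated Compound 10 replicate 2 those of Dnajc3 and Eif2ak3 at 0.0534 and 0.0511. When only the 5 unstimulated libraries were fitted, 0 of the 30 members passed, and 123 of all genes did.

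Unstimulated vehicle replicate 3 and unstimulated Compound 10 replicate 2 stood apart from the other 8 libraries. They were the deepest, and the share of estimated counts given to single transcripts differed in them, for example 58.8% and 48.9% of Sel1l counts for the transcript Sel1l-201 against 6.84% to 29% elsewhere, and 66.3% and 69.9% of Herpud1 counts for Herpud1-205 against 29.6% to 47.0%. Without both, 1 ATF4 branch and 2 ER branch members passed with Compound 10 in unstimulated cells, and 5 and 15 passed with stimulation under vehicle. The cause of this difference was not tested.

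The interaction asks whether Compound 10 shifted the response to stimulation. It was lower for 1 of 9 ATF4 branch members, Cth, and for 0 of 21 ER branch members, where 2.55% of all genes had a higher and 4.08% a lower interaction. Cth had an interaction of -3.32 ± 0.85 (SE) with an adjusted p of 0.0409. The call ended without any of 9 of the 10 libraries, at adjusted p from 0.0609 without unstimulated vehicle replicate 1 to 0.175 without stimulated vehicle replicate 1, and it held without stimulated Compound 10 replicate 3. Atf6 measured -2.03 ± 0.57 (SE) and was just outside the threshold (adjusted p = 0.0562). The next smallest adjusted p-values in the ER branch were those of Dnajb9, with an interaction of -0.78 ± 0.25 (SE) (adjusted p = 0.0913), and of Calr, with -0.58 ± 0.22 (SE) (adjusted p = 0.144). Xbp1 and Eif2ak3 measured 0.31 ± 0.19 (SE) and 0.07 ± 0.29 (SE), and Ddit3 and Atf5 measured -0.03 ± 0.28 (SE) and -0.42 ± 0.53 (SE), none of which passed. For these 4 genes a shift of the stimulation response by the compound was not detectable with 2 or 3 libraries a group, which does not show that there was none. In the ER branch the count of 0 depended on the fit. With the index range as a term 4 members passed, Herpud1 (-0.95, adjusted p = 0.00270), Atf6 (-2.02, 0.00701), Calr (-0.66, 0.0171) and Dnajb9 (-0.81, 0.0268), and 2167 of all genes passed in place of 956. With DESeq2 Atf6 and Dnajb9 passed, and with the replicate number as a term Herpud1 and Atf6 passed. Without unstimulated vehicle replicate 3, Atf6, Dnajb9 and Herpud1 passed (0.0447, 0.0382 and 0.0420), without unstimulated vehicle replicate 2 Atf6 passed (0.0265), and without unstimulated Compound 10 replicate 1 Dnajb9 passed (0.0419).

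The 2 branches can be set against each other within a library, where the scaling of libraries cancels. The mean log2 CPM of the 9 ATF4 branch genes tested minus that of the 21 ER branch genes was -2.66 ± 0.07 (SD, n = 3) in unstimulated vehicle and -2.50 ± 0.05 (n = 2) in unstimulated Compound 10 libraries. It was -2.67 ± 0.02 (n = 2) in stimulated vehicle and -2.72 ± 0.17 (n = 3) in stimulated Compound 10 libraries. Leaving out the 3 lowest genes, Cth, Atf5 and Slc7a11, gave -0.75 ± 0.06, -0.56 ± 0.04, -0.99 ± 0.05 and -0.65 ± 0.11 in the same order. Of the 3 genes left out, Atf5 was called lower with Compound 10 in stimulated (-2.22) and unstimulated (-1.80) cells. Cth was called higher with it in unstimulated cells (3.01). By this second measure, without these genes, the ATF4 branch was nearer to the ER branch in Compound 10 than in vehicle libraries. This held both with and without stimulation. The first measure, with all 9 genes, differed by less than its spread between the stimulated groups. These are descriptions over genes chosen by name and carry no test.

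**Figure D5:**
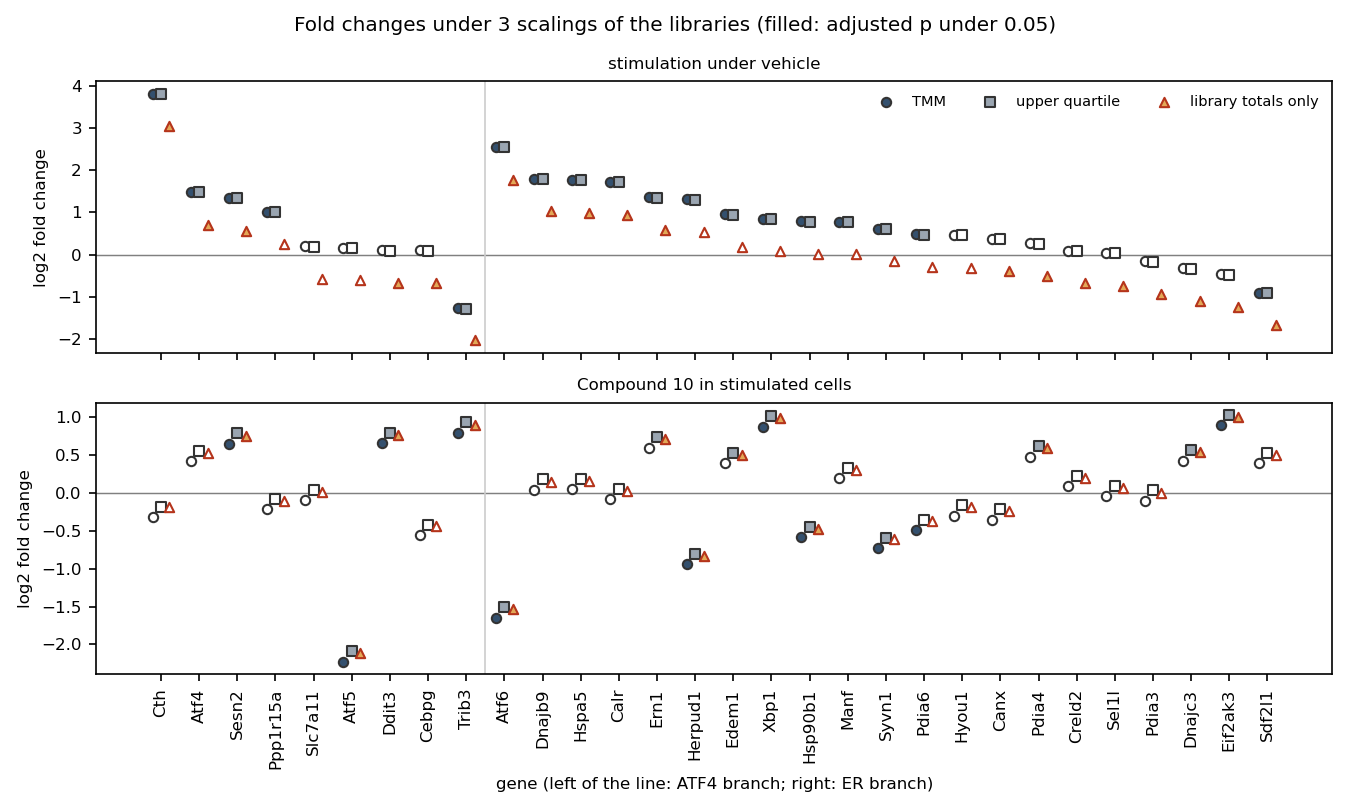
Log2 fold changes of the 30 genes tested under TMM, upper-quartile and library-total scaling, for stimulation under vehicle (top) and Compound 10 in stimulated cells (bottom), with filled symbols for an adjusted p under 0.05. In the top panel the library-total triangles sit below the others, as the median of all genes does (-0.83), and the ER branch split turns from 12 higher and 1 lower to 5 higher and 8 lower; in the lower panel the shift is smaller.

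The genes around these members were read from 4 further lists of pathway genes. A list of 17 genes, all tested, held other eIF2 kinases, eIF2, its exchange factor eIF2B and further genes around them, such as Ppp1r15b and Impact. Of these 17, 4 rose, Ppp1r15b among them, and 5 fell with stimulation under vehicle (1 and 11 with library totals only). Over all genes 19.5% rose and 19.4% fell. With Compound 10 in stimulated cells 0 of the 17 were higher and 6 lower, where 10.4% and 12.8% of all genes were (2 and 5 with upper-quartile factors, 0 and 5 with library totals only). The lower ones included the eIF2B subunit genes Eif2b5 (-0.83), Eif2b2 (-0.70) and Eif2b4 (-0.92) and the eIF2 beta subunit gene Eif2s2 (-1.09). Without stimulated vehicle replicate 2 the count of 6 became 3, and Eif2b2 and Eif2b4 did not pass (adjusted p of 0.0594 and 0.0770). Impact, an inhibitor of the eIF2 kinase GCN2, was higher with Compound 10 in unstimulated cells by 1.47, from 17.3, 17.7 and 23.8 to 47.5 and 61.3 CPM.

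Of 43 other ATF4 target genes, 37 were tested, and 17 rose and 3 fell with stimulation under vehicle (7 and 10 with library totals only). Over all genes 19.5% rose and 19.4% fell. With Compound 10 in stimulated cells 3 were higher and 16 lower, where 10.4% of all genes were higher and 12.8% lower. These counts became 5 and 14 with upper-quartile factors, and fewer passed without stimulated vehicle replicate 1. The median was -0.49, against -0.10 for the ATF4 branch members and 0.04 for all genes. The 4 named by the smallest adjusted p were aminoacyl-tRNA synthetase genes. Tars measured 180.5 and 188 CPM with vehicle and 30.9, 35.5 and 39.3 CPM with Compound 10, a difference of -2.38 ± 0.15 (SE). Cars measured 248 and 224 and 32.5, 47.7 and 57.2 CPM, a difference of -2.36 ± 0.22 (SE). Aars and Yars differed by -1.33 and -1.38. With stimulation under vehicle the cationic amino acid transporter gene Slc7a1 rose by 4.01, the amino acid transporter subunit gene Slc3a2 by 1.63, the pseudokinase gene Trib1 by 6.38 and the stress factor gene Atf3 by 4.39. In the same stimulated Compound 10 libraries Trib3, Sesn2 and Ddit3 were higher than with vehicle, while these synthetase genes were lower.

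Of 44 other genes of ER folding and translocation, 41 were tested, and 13 rose and 6 fell with stimulation under vehicle. Over all genes 19.5% rose and 19.4% fell. The list counts were 2 and 23 with library totals only, and fewer passed without stimulated vehicle replicate 1. Among those that rose were the oxidase genes Ero1l (1.48) and Ero1lb (1.19, or 0.42 and no call with library totals only) and the disulfide isomerase gene P4hb (1.37). With Compound 10 in stimulated cells 2 were higher and 15 lower (4 and 13 with upper-quartile factors), with a median of -0.29. Over all genes 10.4% were higher and 12.8% lower. Without stimulated vehicle replicate 1 or 2, the count of 17 became 9 and 11. Rpn1, a subunit of the oligosaccharyltransferase, measured 175 and 179 CPM with vehicle and 34, 42.0 and 44.5 CPM with Compound 10, a difference of -2.14 ± 0.17 (SE). The catalytic subunit gene Stt3a of that enzyme, the translocon gene Ssr2 and the BiP cochaperone gene Dnajb11 differed by -1.13, -1.31 and -1.07. Of 33 other genes of ER-associated degradation and unfolded protein response control, 31 were tested, and 2 were higher and 5 lower with Compound 10 in stimulated cells (3 and 4 with library totals only, 4 and 4 with upper-quartile factors, and 4 called in all without either stimulated vehicle library), shares that lie near the 10.4% and 12.8% of all genes. Among them were Ube2g2 (-1.06), Nploc4 (-1.13) and Herpud2 (1.14).

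Some features of the counting limit single members. None of the annotated Xbp1 transcripts in the files differ from each other by only the 26 bases that IRE1 removes, so the spliced and unspliced forms cannot be told apart. Ddit3 overlaps Mars, Manf overlaps Dcaf1 and Rbm15b, and Syvn1 overlaps Mrpl49, and without strand the reads of such overlaps are uncertain. Pdia3 overlaps Catsper2 and Ppp1r15a overlaps Tulp2, which were given 290 and 0 counts over the 10 libraries. Pdia3 and Ppp1r15a held at least 10869 and 6901 counts in each library. Overlaps were read from whole gene spans, introns included. The deposited name of each library ends in a number, here called its index number. The name does not state what this number stands for. The index numbers were grouped in 3 ranges (13 to 16, 19 to 22 and 25 to 29), and no group had more than 1 library in a range. Each pairwise comparison could therefore be made within 2 ranges, always with 1 library against 1. For Compound 10 in stimulated cells the within-range log2 differences of Atf5 were -2.19 and -2.17 and those of Xbp1 were 0.81 and 0.79. The sign of such differences is fixed wherever the groups do not overlap, so they add no support to a call.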

How the data were processed

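RNA from naive CD4 T cells was sequenced in 10 libraries in 4 groups. Reads were trimmed with cutadapt and quantified with kallisto against mm10, per the submitters' processing notes, with versions not stated there. Per the file headers, the authors deposited estimated counts and TPM for each of 109617 transcripts. The deposited estimated counts and TPM were summed per gene through GENCODE M21 (108214 transcripts matched), and the counts were rounded. The unmatched transcripts held 0.507% to 0.671% of counts and were left out. Library totals of 10694591 to 33486259 counts set the precision, and floors from 3 counts cover counting error only.

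One edgeR 4.0.16 (R 4.3.3) quasi-likelihood fit over the 10 libraries, with TMM factors and filterByExpr by group, gave each contrast, with Benjamini-Hochberg adjustment over 14417 genes and calls at an adjusted p under 0.05. CPM are TMM-scaled, except for the sums of cell type genes, those of plasma cell genes included, and the floors from 3 counts. These exceptions are CPM by library totals. The scripts were tested on simulated data. Every pair of libraries within a group differed beyond sampling noise (chi-square over its degrees of freedom at least 14.8). Members and lists were chosen with earlier results of these data known. Named were all 34 members, up to 4 called genes with the smallest adjusted p from each pathway list and contrast, of which some are printed, and Il2, Cd69 and Egr1.

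Alternatives were other scalings, DESeq2 1.42.0, voom in limma 3.58.1, other filters, fits of only the groups compared, the replicate number or the index range as a term, a robust fit and each library left out. Leaving out 2 libraries that stood apart, and running the pathway lists under each alternative, were chosen after seeing the data. Promoter windows came from RefSeq (GRCm38.p6).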

Additional observations from a re-analysis of the deposited data

Results flagged for a closer look

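Over all genes tested, 956 passed the interaction test, which asks whether the response to stimulation differed between vehicle and Compound 10 cells (edgeR quasi-likelihood). Given here are 9 of these, the members that passed and up to 4 genes from each pathway list. Among the members Cth alone passed, with an interaction of -3.32 on the log2 scale (adjusted p = 0.0409), on 152 counts in all, and the call ended without any of 9 libraries.

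The other 8 were pathway genes outside the 34 members. The interaction was -1.55 for Tars (adjusted p = 0.00265), which rose from 105, 97.0 and 109 to 180.5 and 188 CPM with stimulation under vehicle and went from 60.1 and 56.0 to 30.9, 35.5 and 39.3 CPM under Compound 10. For the transporter gene Slc7a1 it was -2.05 (adjusted p = 0.00270), with 28.4, 29.2 and 20.8 and then 475 and 364 CPM under vehicle and 44.2 and 33.6 and then 157, 164 and 132 CPM under Compound 10. It was -1.12 for Aars and -1.51 for Cars (adjusted p of 0.00868 and 0.0160). Aars did not pass without stimulated vehicle replicate 1 (0.0605), and Cars did not pass without stimulated vehicle replicate 1 or 2 (0.0867 and 0.0578).

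Among genes of ER folding and translocation the interaction was -1.26 for Rpn1, -0.91 for Stt3a, -0.73 for the translocon gene Sec61a1 and -1.12 for the translocon-associated gene Ssr1 (adjusted p of 0.0125, 0.0168, 0.0400 and 0.0484). Without stimulated vehicle replicate 1 these 4 had 0.0647, 0.0748, 0.160 and 0.145, and without replicate 2 they had 0.0619, 0.0844, 0.117 and 0.153. Without unstimulated Compound 10 replicate 2, Stt3a, Sec61a1 and Ssr1 had 0.0624, 0.115 and 0.169. Sec61a1 and Ssr1 also did not pass with upper-quartile factors (0.0566 and 0.0687).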

How the results depend on the processing

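Of the member values recomputed under alternatives other than leaving out 1 library, 1635 stayed on their side of the threshold, 44 lost a call, 81 gained one and 10 changed sign with a call in at least 1 of the 2 fits. With 1 library left out the counts were 1389, 96, 15 and 0. Among the values that were called in neither fit, 81 and 73 changed sign. All 10 sign changes of called values came from scaling by library totals only. With stimulation under vehicle they were Ddit3 (-0.67), Cebpg (-0.68), Pdia4 (-0.51), Pdia6 (-0.30), Canx (-0.40), Creld2 (-0.68), Syvn1 (-0.16) and Sel1l (-0.74). With stimulation under Compound 10 they were Hsp90b1 (-0.10) and Canx (-0.55). Totals also took 6029 instead of 3816 genes past the threshold with stimulation under Compound 10.

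For Compound 10 in unstimulated cells the ER branch count of 5 became 3 with library totals only and with no filter on low counts, 0 with only the groups compared and 2 without the 2 libraries that stood apart. The ATF4 branch count of 3 became 0, 5 and 1 with only the groups compared, with the index range as a term and without those 2 libraries. The count over all genes of 1215 became 1888 with DESeq2, 1828 with voom, 123 with only the groups compared, 2403 with the index range and 632 without those 2 libraries. For Compound 10 in stimulated cells the index range took the ATF4 branch from 4 to 7 and the ER branch from 7 to 12.

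For the interaction the ATF4 branch count of 1 became 0 with library totals only, DESeq2, voom, the replicate block and without the 2 libraries. The ER branch count of 0 became 2 with DESeq2, 1 with voom, 1 with no filter, 2 with the replicate block, 4 with the index range and 1 without the 2 libraries. In that branch 5 members had an unadjusted p under 0.05. Over all genes 956 became 1671 with DESeq2, 1448 with no filter, 1504 with the replicate block and 2167 with the index range. Same-numbered libraries correlated at -0.28 to 0.33 in their deviations from group means (13 pairs). Libraries of the same index range correlated at -0.05 to 0.46 (12 pairs, median 0.09). In a group of 2 libraries the deviations mirror each other, so these correlations cannot decide whether libraries were paired. The labels do not state pairing, and the numbers were not taken as pairs. The cause of these shifts was not tested.

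With each library left out in turn, the ATF4 and ER branch counts ranged from 5 to 5 and 9 to 14 for stimulation under vehicle, 3 to 4 and 7 to 8 under Compound 10, 1 to 4 and 1 to 9 for Compound 10 in stimulated cells, 1 to 4 and 0 to 5 in unstimulated cells, and 0 to 1 and 0 to 3 for the interaction. The counts over all genes ranged from 3606 to 5759, 2398 to 4347, 1630 to 3900, 351 to 1313 and 198 to 1323 in the same order. With 2 or 3 libraries a group and counts near the floor, changes in Cth, Slc7a11 and the untested members were not measurable with precision.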
